A study of Mus musculus with 18 samples.

Results

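The genes described here are 35 targets of the tumor suppressor p53, listed by symbol, in mouse hepatoma cells exposed to ligands of the aryl hydrocarbon receptor (AHR). Of the 35 genes, 31 had a probe set that carried their symbol and no other, out of 18193 genes named that way on the arrays. *Trp53*, which encodes p53 itself, and its targets *Bax*, *Fdxr* and *Gdf15* had none and were not analysed here. Where a gene had several probe sets, the brightest on average across the 18 arrays gave its value, and the 31 genes had 65 probe sets in all.

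Expression was measured on Affymetrix arrays as a log2 signal, in 6 groups of 3 arrays that the labels describe as biological replicates. Wild-type Hepa-1c1c7 cells, a mouse liver tumor line, and *c*35 cells were exposed for 8 hr to BaP (5 µM), to TCDD (5 nM) or to the solvent DMSO alone. The labels of the wild-type TCDD arrays give no dose, and the dose in the study's methods was taken. The *c*35 line is 1 derivative of Hepa-1c1c7, whose AHR carries a missense mutation that leaves it unable to bind DNA. Cells that received DMSO only are called naive. Both lines are single cell lines, so the arrays measure the spread between cultures and not between animals.

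p53 is a transcription factor that is held at a low level in unstressed cells by the ubiquitin ligase MDM2 and accumulates when DNA is damaged. Its targets halt the cell cycle, prime cells for apoptosis, repair DNA and feed back on p53 itself, and many of them have further inducers. BaP is a polycyclic hydrocarbon that AHR-induced cytochrome P450 enzymes turn into products that bind to DNA, whereas TCDD, a chlorinated dioxin, binds the AHR tightly and is hardly metabolized. *c*35 cells hold an AHR that binds ligand but cannot act on its gene targets through DNA.

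The sequences upstream of the genes that responded are shown first, because both the AHR and p53 act by binding to DNA. They are the 250 bases before the RefSeq start of *Btg2* (chr1:134079156-134079405, minus strand), *Fas* (chr19:34290409-34290658, plus strand), *Mdm2* (chr10:117710759-117711008, minus strand) and *Plk2* (chr13:110394794-110395043, plus strand), on the GRCm38.p6 build, written 5′ to 3′ toward the gene. Capitals mark the AHR core GCGTG, which reads CACGC on the other strand, and the p53 half-site. *Pmaip1* and *Trp53inp1* are named only.
Btg2: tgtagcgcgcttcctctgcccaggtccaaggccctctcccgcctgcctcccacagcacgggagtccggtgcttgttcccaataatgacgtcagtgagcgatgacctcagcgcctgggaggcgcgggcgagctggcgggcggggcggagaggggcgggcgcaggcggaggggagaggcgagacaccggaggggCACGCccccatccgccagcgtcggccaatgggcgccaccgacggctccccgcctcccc
Fas: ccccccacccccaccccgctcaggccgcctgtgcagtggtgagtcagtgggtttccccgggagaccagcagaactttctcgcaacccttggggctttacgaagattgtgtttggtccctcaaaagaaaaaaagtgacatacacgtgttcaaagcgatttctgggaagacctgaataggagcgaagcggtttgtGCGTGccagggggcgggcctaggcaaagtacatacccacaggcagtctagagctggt
Mdm2: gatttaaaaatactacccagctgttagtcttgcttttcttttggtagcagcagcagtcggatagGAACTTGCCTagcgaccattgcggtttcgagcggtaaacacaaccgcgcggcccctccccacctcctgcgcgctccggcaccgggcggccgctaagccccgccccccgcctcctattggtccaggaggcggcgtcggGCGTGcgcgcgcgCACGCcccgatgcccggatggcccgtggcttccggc
Plk2: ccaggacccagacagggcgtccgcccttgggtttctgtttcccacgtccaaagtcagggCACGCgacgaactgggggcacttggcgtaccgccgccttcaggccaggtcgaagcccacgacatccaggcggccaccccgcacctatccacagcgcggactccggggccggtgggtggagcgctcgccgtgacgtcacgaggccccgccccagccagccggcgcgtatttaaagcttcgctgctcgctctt

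All 4 windows hold the AHR core, and the *Mdm2* window also holds a p53 half-site that begins at base -186 from the start. The p53 response element for which *Mdm2* is known lies in its first intron, outside this window. Of 37 such windows, which belong to 23 of the 31 genes, 51.4% held GCGTG on either strand, beside 38.0% of the windows of genes named on the array. A p53 half-site with no mismatch was in 24.3% of the windows of the p53 targets and in 6.26% of those of genes on the array. A match is a run of letters and was not tested as a binding site.

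A pair of half-sites up to 13 bases apart with up to 2 mismatches, the form in which p53 binds, was in 10.8% of the targets' windows and in 3.15% of those of genes on the array. The 4 genes that held one are given with the half-sites in capitals and the spacer in lower case. They are the cell cycle inhibitor gene *Cdkn1a* (chr17:29090928-29090947, plus strand), *Ccng1* (chr11:40755462-40755481, minus strand), *Sesn1* (chr10:41887253-41887275, plus strand) and *Rps27l* (chr9:66946296-66946315, plus strand).
Cdkn1a: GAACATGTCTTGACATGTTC
Ccng1: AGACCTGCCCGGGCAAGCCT
Sesn1: GCGCTTGGCCttcAAGCTTGTTT
Rps27l: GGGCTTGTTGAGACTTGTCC

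The *Cdkn1a* pair runs from base -51 to base -32 from the start that ends the window chr17:29090729-29090978 and has 1 mismatch. Its first half-site also pairs with one 12 bases upstream, from base -73 to base -42, with 0 mismatches. The window of another *Cdkn1a* start (chr17:29093519-29093768) held no p53 half-site. *Sesn1* and *Rps27l* likewise had another window without one. None of the 4 genes was among those called with a ligand on the probe set used, although *Cdkn1a* was higher with BaP, as given further on.

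*Cyp1a1*, the classic target of the AHR, served as a check of the labels. It was at 9.73 ± 0.11 (SD, n = 3) in naive wild-type cells, at 13.02 ± 0.08 with TCDD and at 13.43 ± 0.05 with BaP, while in *c*35 cells the group means lay between 5.82 and 7.17. On *c*35 arrays it was at 8.32 and 8.34 in DMSO replicates 1 and 2 and at 8.32 in BaP replicate 3, and between 4.87 and 6.23 on the other 6. Wild-type DMSO replicate 1 stood apart from its group: its *Actb* 3′ minus 5′ difference, a sign of RNA breakdown, was the highest of all arrays at 1.38, and its array weight was 0.29. The next lowest array weight was that of *c*35 BaP replicate 2, at 0.44. This array also had the lowest mean correlation with its group among *c*35 arrays (0.9957). Hepatocyte markers were mixed: *Afp*, *Krt8* and *Krt18* were at the 97.8, 99.7 and 99.7 percentiles of all genes, and *Alb* was at 13.64 in naive wild-type and 11.18 in naive *c*35 cells, but *Apoa1*, *Apob*, *Fgb* and *Hnf4a* were below the median. Of 8 fibroblast markers 4 were above the median of all genes, with *Dcn* and *Col3a1* high and *Lum* and *Pdgfra* low. Of 7 macrophage and leukocyte markers 3 were, with *Csf1r* high and *Itgam*, *Adgre1* and *Ptprc* low, and of 6 endothelial markers 0 were. The summed log2 signal of 10 hepatocyte markers was 88.7, 88.9 and 88.7 in wild-type cells with DMSO, TCDD and BaP, and the part of these markers in the results was not tested.

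The first comparison asked which p53 targets BaP moved in wild-type cells. BaP raised 4 of the 31 genes and lowered 0: *Btg2*, an antiproliferative gene, *Trp53inp1*, whose product promotes p53-dependent cell death, the death receptor gene *Fas*, and the polo-like kinase gene *Plk2*. A gene was called at an adjusted p below 0.05 from limma and a change above 1.5-fold. By this rule 0.885% of all genes were higher and 0.434% lower with BaP. At the adjusted p alone, 16 of the 31 genes were higher and 0 lower, where 3.33% of all genes were higher and 3.14% lower. Of the 31 genes, 27 had a difference above 0, beside 50.3% of all genes, and the BaP arrays lay above all naive arrays for 21 and below them for 1, beside 11.5% and 12.3% of all genes. The median change of the 31 genes was 0.30 on the log2 scale, beside 0.00 for all genes. In bulk RNA, a change in the share of cells that express a gene and a change in its RNA per cell cannot be told apart.

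**Figure D1:**
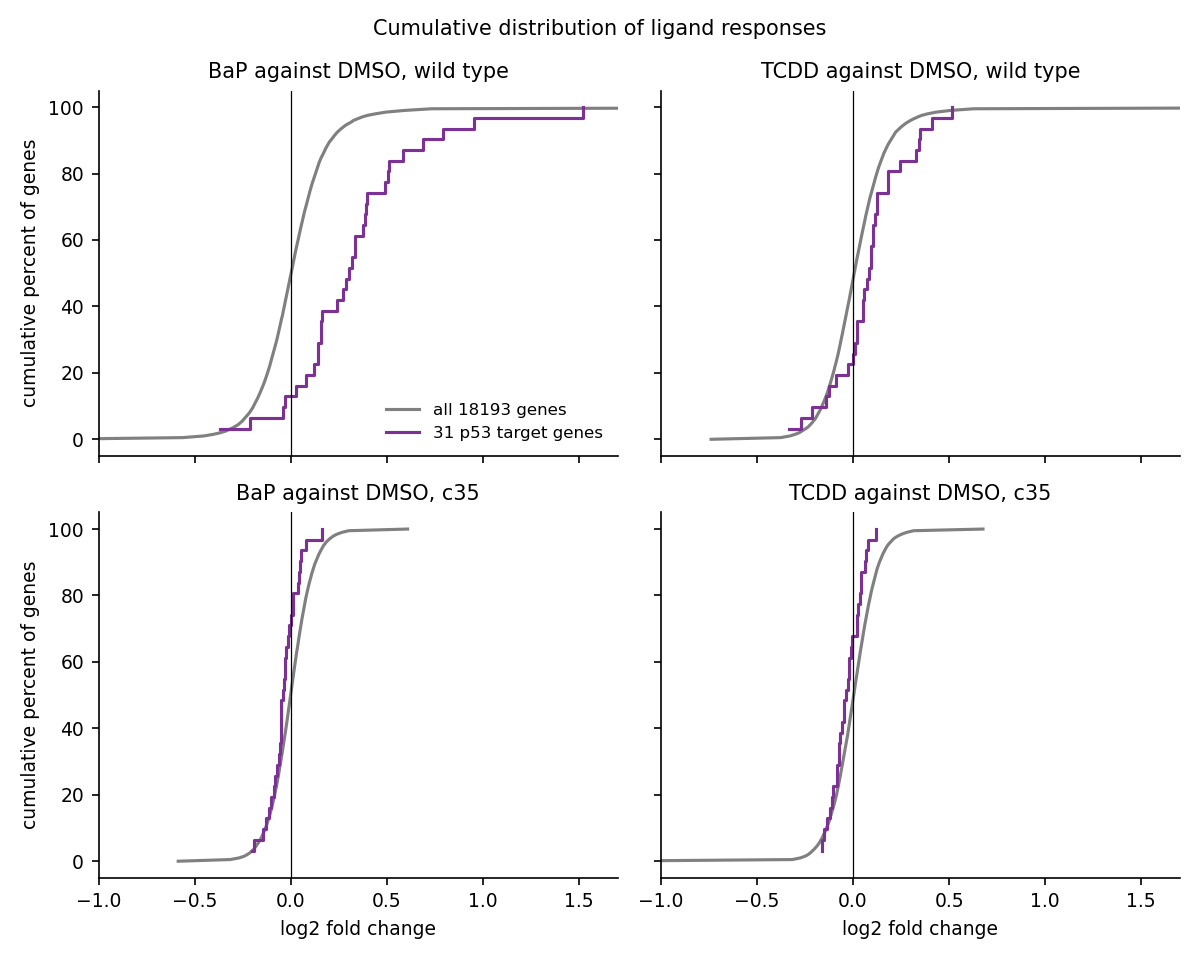
Cumulative percent of genes (vertical axis) at or below each log2 fold change (horizontal axis) for the 31 p53 targets and for all 18193 genes, with each ligand in each line, where the tails of all genes run past the axis. With BaP in wild-type cells the p53 targets lie to the right of all genes, with a median of 0.30, and in *c*35 cells their median is -0.04 with either ligand.

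*Btg2* (chr1:134074865-134079155) gave the largest change of the 31. Its log2 signal was 8.01, 8.60 and 8.85 on the naive wild-type arrays, 8.85, 9.19 and 8.97 with TCDD and 9.75, 10.11 and 10.16 with BaP. The BaP arrays all lay above those of both other groups. The change with BaP was 1.52 (standard error 0.15, 2.87-fold, adjusted p = 3.02e-06). The naive value of 8.01 is that of the array that stood apart, and without it the change was 1.28 (adjusted p = 1.06e-06). The other probe set of the gene changed by 1.29 (adjusted p = 9.63e-08). In *c*35 cells all 9 arrays lay between 8.70 and 8.98, and the groups overlapped.

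*Trp53inp1* (chr4:11156441-11174379) had the lowest adjusted p. The naive wild-type arrays were at 10.81, 10.77 and 10.79, those with TCDD at 11.07, 11.09 and 11.19, and those with BaP at 11.74, 11.82 and 11.67. The 3 wild-type groups did not overlap, with TCDD between the others. The change with BaP was 0.95 (standard error 0.07, 1.94-fold, adjusted p = 3.07e-08). Its second probe set, of mean signal 5.97 against 10.82, changed by 0.42 (adjusted p = 0.0516). The 9 *c*35 arrays ran from 10.29 to 10.57, below every wild-type array.

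*Fas* (chr19:34290647-34327775) encodes the receptor through which Fas ligand starts apoptosis. It was at 7.33, 7.59 and 7.52 in naive wild-type cells, at 7.85, 7.85 and 7.99 with TCDD and at 8.31, 8.29 and 8.21 with BaP. The 3 groups again did not overlap, and the change with BaP was 0.79 (standard error 0.11, adjusted p = 1.69e-04). In *c*35 cells it was at 8.01, 7.89 and 7.76 when naive, at 7.80, 7.96 and 7.82 with TCDD and at 7.88, 7.34 and 7.84 with BaP. The last group held the lowest *c*35 array, and the naive *c*35 arrays were all above the naive wild-type arrays.

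*Plk2* (chr13:110395044-110400844), a kinase gene linked to arrest, stood at 11.24, 11.02 and 11.07 in naive wild-type cells, at 11.36, 11.45 and 11.55 with TCDD and at 11.73, 11.91 and 11.75 with BaP. The ordering of the groups was that of *Fas*, without overlap. The change with BaP was 0.69 (standard error 0.09, adjusted p = 9.13e-05). A second probe set with a mean signal of 4.55 changed by 0.03, so the mean of both was no longer called (0.36). The *c*35 arrays lay between 10.65 and 11.005 in all groups.

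**Figure D2:**
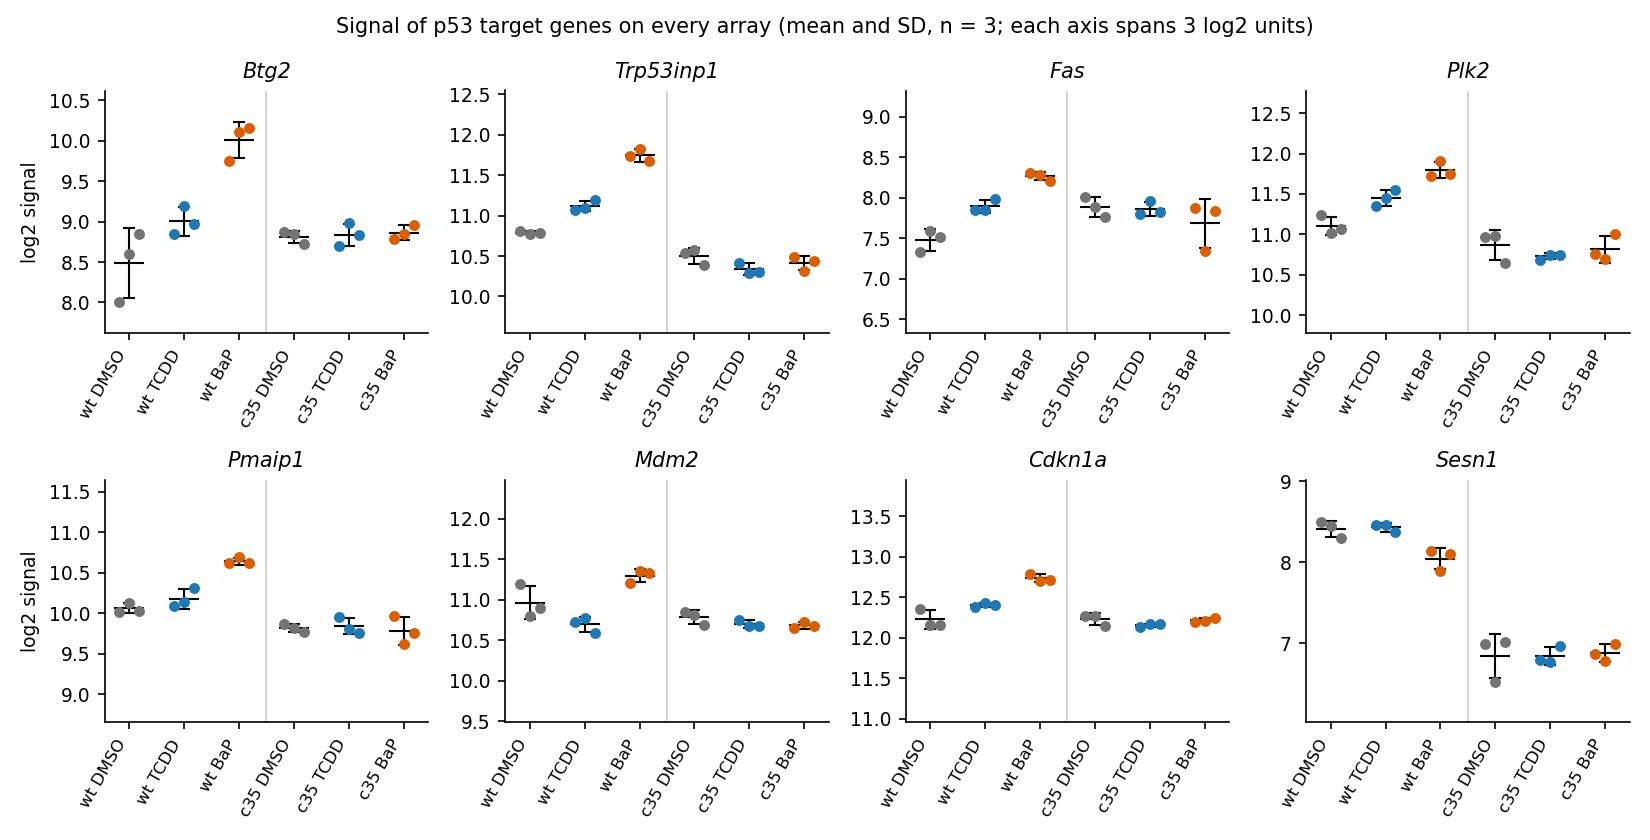
Log2 signal (vertical axis) of 8 p53 targets on each array (points), with the mean and SD of each group of 3 arrays (bars), by line and treatment (horizontal axis). *Btg2*, *Trp53inp1*, *Fas*, *Plk2*, *Pmaip1* and *Cdkn1a* are highest in wild-type cells with BaP, and *Sesn1* is lower there than in naive wild-type cells and lowest in the *c*35 line.

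The fold minimum split the next genes closely. *Pmaip1*, which encodes the BH3-only death protein NOXA, was at 10.02, 10.13 and 10.03 in naive wild-type cells, at 10.08, 10.13 and 10.31 with TCDD and at 10.62, 10.69 and 10.62 with BaP. Its BaP arrays were above all others, but the change of 0.58 (standard error 0.08, adjusted p = 1.27e-04) lay just under the 0.585 of a 1.5-fold change, and it was called after median centring of the arrays and without wild-type DMSO replicate 2, BaP replicate 1 or BaP replicate 3. In *c*35 cells it lay between 9.62 and 9.96. *Cdkn1a*, the gene of the kinase inhibitor p21 and the best known p53 target in arrest, was at 12.36, 12.16 and 12.16 when naive, at 12.38, 12.43 and 12.40 with TCDD and at 12.79, 12.70 and 12.71 with BaP. Its change of 0.51 (standard error 0.06, adjusted p = 1.68e-05) was likewise below the minimum, while its second probe set was called at 0.63 (adjusted p = 1.30e-04).

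By role, all 4 genes of cell cycle arrest other than *Rprm* were higher with BaP at the adjusted p alone, where 3.33% of all genes were. Besides *Btg2*, *Plk2* and *Cdkn1a* this was the stress kinase gene *Plk3*, at 6.93, 7.06 and 6.87 when naive and 7.55, 7.32 and 7.46 with BaP (change 0.49, adjusted p = 0.00186). *Rprm*, which encodes the arrest protein reprimo, had a mean signal of 4.83 over all arrays, among the dimmest 27.0% of genes, and a change of -0.03. The median of the 5 genes was 0.51.

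All 12 apoptosis and survival genes had a difference above 0 with BaP, beside 50.3% of all genes, and 8 were higher at the adjusted p, beside 3.33%, with a median of 0.35. Beside *Trp53inp1*, *Fas* and *Pmaip1* these were *Bbc3*, the gene of the BH3-only protein PUMA (0.40, adjusted p = 0.0181), *Tnfrsf10b*, a receptor for the death ligand TRAIL (0.39, adjusted p = 0.0381), *Phlda3*, which restrains the survival kinase AKT (0.32, adjusted p = 0.00138), *Ei24* (0.28, adjusted p = 0.0139) and the RNA-binding gene *Zmat3* (0.27, adjusted p = 0.0202). *Apaf1*, the scaffold of the apoptosome, differed by 0.30 (adjusted p = 0.072), the membrane protein gene *Perp* by 0.16 and the nuclease gene *Aen* by 0.12. *Rps27l*, a ribosomal protein homolog, differed by 0.39 (adjusted p = 0.184), a value that rests on naive replicate 1: this array was at 12.46 and the other two naive arrays at 13.45 and 13.43, and without it the difference was 0.06.

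The remaining roles held 4 of the 16 genes that passed the adjusted p, where 3.33% of all genes were higher. Of 4 feedback regulators, *Mdm2* was higher by 0.33 with BaP (adjusted p = 0.02), whereas *Ccng1*, the gene of cyclin G1, differed by 0.24 (adjusted p = 0.0769), the phosphatase gene *Ppm1d* by 0.16 and *Mdm4*, whose product inhibits p53, by -0.21, or by -0.07 without naive replicate 1. Among 5 genes of DNA repair and nucleotide supply, the excision nuclease gene *Ercc5* (0.51, adjusted p = 9.07e-04) and *Polk*, the gene of a polymerase that copies past bulky adducts (0.33, adjusted p = 0.0297), passed the adjusted p. The damage recognition genes *Xpc* and *Ddb2* differed by 0.16 and 0.03 (*Ddb2* by 0.19 without naive replicate 1) and the ribonucleotide reductase gene *Rrm2b* by -0.04.

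Of the 4 genes of metabolism and stress, the sestrin gene *Sesn2* was higher by 0.38 (adjusted p = 0.0115), and its second probe set was called at 0.60. Its paralog *Sesn1* differed the other way: 8.50, 8.45 and 8.30 in naive wild-type cells, 8.47, 8.46 and 8.37 with TCDD and 8.14, 7.89 and 8.11 with BaP. The BaP arrays were below all other wild-type arrays and the difference was -0.37 (standard error 0.11), but its adjusted p of 0.0611 missed the threshold. *Tigar*, a regulator of glycolysis, differed by 0.14 and *Steap3*, a metalloreductase gene, by 0.08. *Cd82*, the gene of a tetraspanin, differed by 0.14. Without naive replicate 1, *Ercc5* was also called (0.61), *Apaf1* passed the adjusted p (0.40), *Bbc3* and *Sesn2* did not, and 15 of the 31 genes passed.

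**Figure D3:**
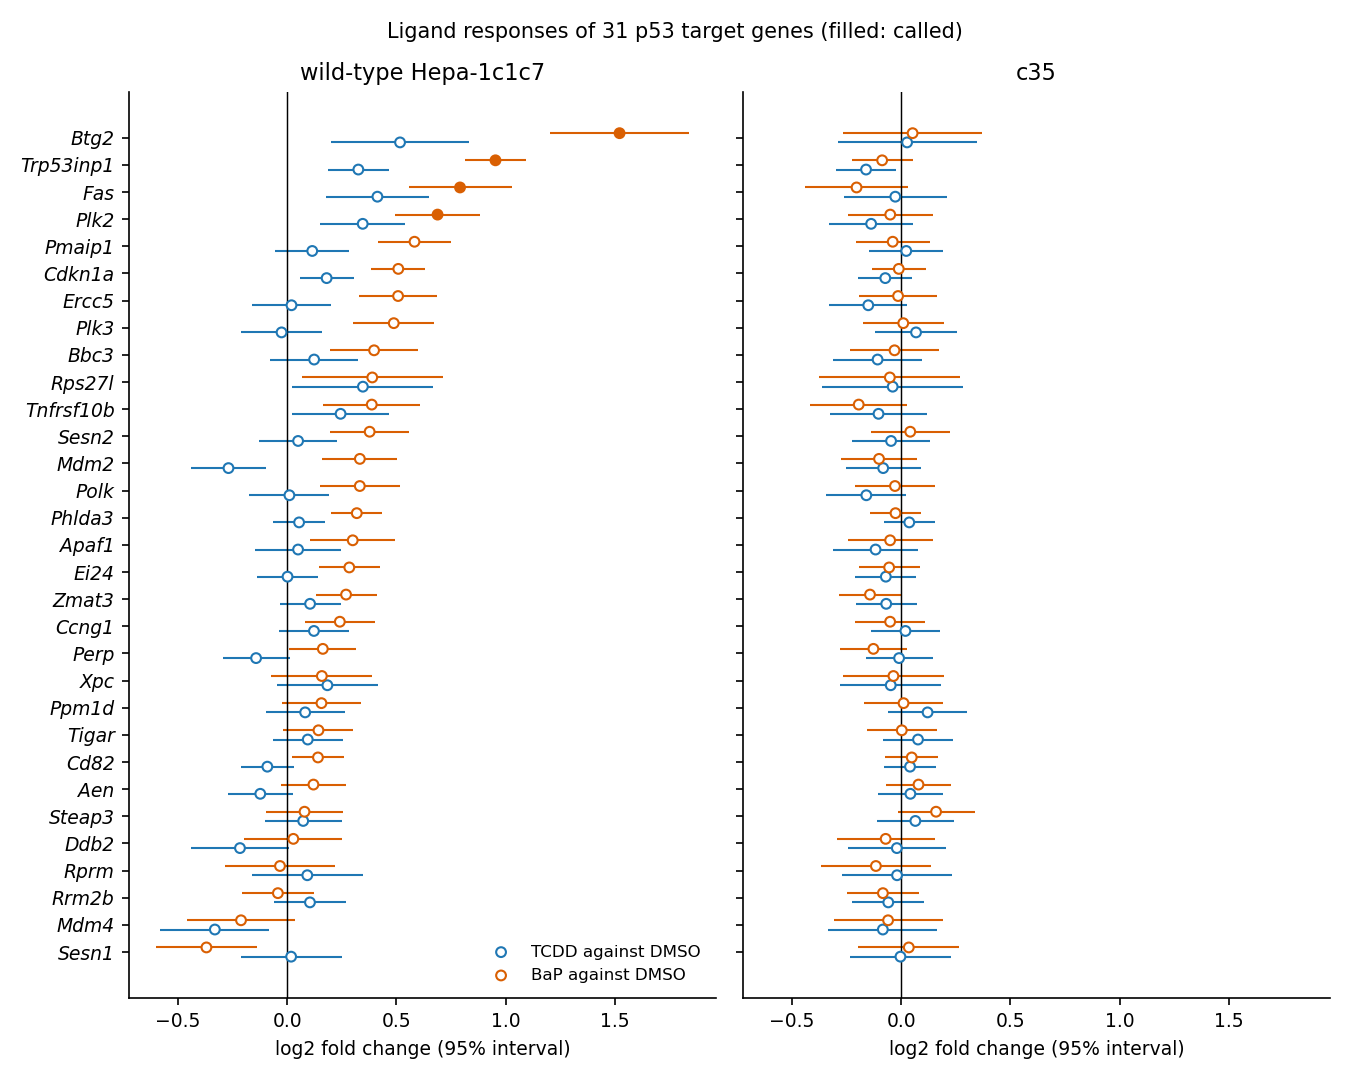
Log2 fold change with 95% interval (horizontal axis) of each of the 31 p53 targets (vertical axis, in order of the BaP response) with BaP and TCDD against DMSO, in wild-type and *c*35 cells, with filled points for called genes. In wild-type cells 27 of 31 BaP values lie above 0 and 4 are called, and in *c*35 cells no gene is called.

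The second comparison asked the same of TCDD. TCDD called 0 of the 31 genes by limma, where 0.341% of all genes were called higher and 0.0385% lower. At an unadjusted p below 0.05 there were 9, beside 14.3% of all genes. *Trp53inp1* alone passed the adjusted p, at 0.33 (standard error 0.07, adjusted p = 0.0214), where 0.764% of all genes passed and were higher and 0.264% were lower. The changes of the other genes that BaP raised were 0.52 for *Btg2* (adjusted p = 0.144), 0.41 for *Fas* (adjusted p = 0.11) and 0.35 for *Plk2* (adjusted p = 0.102). For *Fas* and *Plk2* the TCDD arrays were all above the naive arrays, while for *Btg2* the lowest TCDD array equalled the highest naive one to 2 decimals. *Btg2* was called without wild-type DMSO replicate 3, and without replicate 1 its TCDD change was 0.28, while *Cdkn1a* then passed the adjusted p with TCDD (0.25, adjusted p = 0.0117). With TCDD, 24 of the 31 differences were above 0, beside 51.9% of all genes, and the TCDD arrays lay above all naive arrays for 6 genes and below for 5, beside 10.4% and 7.95% of all genes. The median of the 31 genes was 0.08, beside 0.01 for all genes. The comparisons of BaP and of TCDD with DMSO share the 3 naive arrays, so their values are set side by side and not correlated.

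The ligands were also compared with each other. The naive arrays do not enter these differences, but the fit to all 18 arrays sets their standard errors and adjusted p. *Btg2* was higher with BaP than with TCDD by 1.004 (standard error 0.15, 2.01-fold, adjusted p = 0.00165), *Trp53inp1* by 0.63 (adjusted p = 5.66e-05) and *Mdm2* by 0.60 (adjusted p = 7.11e-04). These 3 were the genes called, all higher, where 0.121% of all genes were called higher and 0.137% lower. At the adjusted p alone 10 of 31 were higher and 0 lower, beside 0.781% and 0.885% of all genes. The further 7 were *Plk3* (0.51), *Ercc5* (0.49), *Pmaip1* (0.47), *Cdkn1a* (0.33), *Perp* (0.31), *Ei24* (0.28) and *Phlda3* (0.26). Without naive replicate 1 the differences stayed the same and the same 3 genes were called. The standard error of *Btg2* was then 0.105, and 15 of 31 were higher and 0 lower at the adjusted p. The BaP arrays lay above all TCDD arrays for 21 genes and below for 2, beside 11.3% and 14.1% of all genes. The median was 0.25, beside -0.01 for all genes. Of 8 measured AHR target genes, listed apart from the 31, 3 were also called higher with BaP than with TCDD and 0 lower. These were *Cyp2s1* (0.84), *Aldh3a1* (0.72) and *Nqo1* (0.67), and the median of the 8 was 0.49.

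*Mdm2* (chr10:117688875-117710758), whose product marks p53 for degradation, lay on opposite sides of its naive mean with TCDD and with BaP. It was at 11.19, 10.80 and 10.90 in naive wild-type cells, at 10.73, 10.77 and 10.59 with TCDD and at 11.21, 11.36 and 11.33 with BaP. The TCDD arrays were all below and the BaP arrays all above the naive arrays, though the TCDD change of -0.27 did not pass (adjusted p = 0.165). Without naive replicate 1 it was -0.15 (adjusted p = 0.53) and the BaP change 0.45. A second probe set differed between the ligands by 0.71 (adjusted p = 0.00718). The call on the first set was lost without wild-type TCDD replicate 3 or BaP replicate 2. In *c*35 cells *Mdm2* was between 10.65 and 10.85 on all arrays.

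The response of each line was then compared by an interaction term, the change in wild-type cells minus that in *c*35 cells. For BaP it called 5 genes, all more positive in wild-type cells: *Btg2* by 1.47 (standard error 0.21), *Trp53inp1* by 1.04 (standard error 0.09), *Fas* by 0.995 (standard error 0.16), *Plk2* by 0.74 (standard error 0.13) and *Pmaip1* by 0.62 (standard error 0.11). The adjusted p from limma ran from 3.99e-06 for *Trp53inp1* to 0.00507 for *Pmaip1*. By this rule 1.01% of all genes were called more positive and 0.33% less positive in wild-type cells. At the adjusted p alone the count was 9, with *Cdkn1a* (0.52, adjusted p = 0.00161), *Ercc5* (0.52), *Zmat3* (0.41) and *Phlda3* (0.34), and 0 were less positive, where 1.54% and 0.775% of all genes passed. The second probe set of *Cdkn1a* was called at 0.63 (adjusted p = 0.00849). Without the array that stood apart, naive wild-type replicate 1, *Tnfrsf10b* (0.62) and *Ercc5* (0.62) were called as well, and *Btg2* was at 1.23. The lowest value of *Fas* among 22 alternatives was 0.82. Both *Btg2* and *Fas* stayed called. The median of the 31 genes was 0.34, beside 0.00 for all genes. For TCDD 0 of the 31 were called, where 0.275% of all genes were called more positive and 0.0055% less. *Trp53inp1* was the 1 gene that passed the adjusted p (0.49, adjusted p = 0.03), beside 0.308% and 0.022% of all genes, and 6 had an unadjusted p below 0.05, beside 7.9% of all genes.

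Within *c*35 cells, limma called 0 of the 31 genes with either ligand at an adjusted p below 0.1, as it called 0% of all genes. At an unadjusted p below 0.05 there was 1 with BaP, *Zmat3* (-0.14), and 1 with TCDD, *Trp53inp1* (-0.16), beside 3.53% and 5.16% of all genes. Differences above 0 numbered 9 with BaP and 10 with TCDD, beside 49.4% and 51.4% of all genes. The BaP arrays lay above all naive arrays for 1 gene and below for 1, beside 5% and 4.16% of all genes, and the TCDD arrays for 0 and 1, beside 5.77% and 6.53%. The median was -0.04 with each ligand. The change of *Btg2* with BaP was 0.05, with a 95% interval from -0.27 to 0.37, and that of *Trp53inp1* was -0.09, from -0.23 to 0.05. Both intervals end below the change of the same gene in wild-type cells. The interval of *Fas* ran from -0.44 to 0.03.

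The naive lines were compared last. Without ligand, 5 p53 targets were higher in the wild-type line than in the *c*35 line and 3 lower, where 7.52% of all genes were called higher and 6.52% lower. The 5 were *Sesn1*, *Ccng1*, *Mdm4*, *Ercc5* and *Zmat3*, and the 3 were *Cd82*, *Tnfrsf10b* and *Tigar*. At the adjusted p alone 12 were higher and 7 lower, beside 18.7% and 19.1% of all genes. The wild-type arrays lay above all *c*35 arrays for 13 genes and below for 8, beside 22.6% and 24.8% of all genes, and the median was 0.01. The naive lines also differed in the *Actb* 3′ minus 5′ difference, at 1.01 ± 0.32 (SD, n = 3) in wild-type and 0.39 ± 0.05 in *c*35 cells. The arrays of the lines did not overlap in this difference, so that it and the line cannot be told apart.

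*Sesn1* differed most, at 8.50, 8.45 and 8.30 in naive wild-type cells and 6.99, 6.53 and 7.01 in naive *c*35 cells (difference 1.57, standard error 0.11, adjusted p = 5.59e-10). *Ccng1* was at 11.20, 11.36 and 11.21 against 9.94, 9.99 and 10.08 (difference 1.25, adjusted p = 6.24e-11). *Mdm4* was at 9.65, 9.27 and 9.16 against 8.34, 8.40 and 7.97 (difference 1.12, adjusted p = 1.95e-07). The lines did not overlap in any of these genes.

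*Ercc5* was at 9.01, 8.63 and 8.78 in wild-type and 7.82, 7.85 and 7.76 in *c*35 cells (difference 0.998, adjusted p = 9.74e-09). *Zmat3* was at 9.83, 9.69 and 9.67 against 8.997, 8.90 and 8.83 (difference 0.82, adjusted p = 4.53e-09). Neither pair of groups overlapped.

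In the other direction, *Cd82* was at 9.43, 9.45 and 9.40 in wild-type and 10.41, 10.40 and 10.32 in *c*35 cells (difference -0.95, adjusted p = 6.61e-11). *Tnfrsf10b* was at 7.04, 7.03 and 6.79 against 7.81, 7.88 and 7.59 (difference -0.81, adjusted p = 3.70e-06). *Tigar*, at 7.52, 7.76 and 7.69 against 8.20, 8.33 and 8.24 (difference -0.60, adjusted p = 2.44e-06), lay next to the fold minimum, and its call was lost in 5 of 16 alternatives, among them those without wild-type DMSO replicate 1 (-0.53) or *c*35 DMSO replicate 2. No array of one line reached those of the other in these genes.

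**Figure D4:**
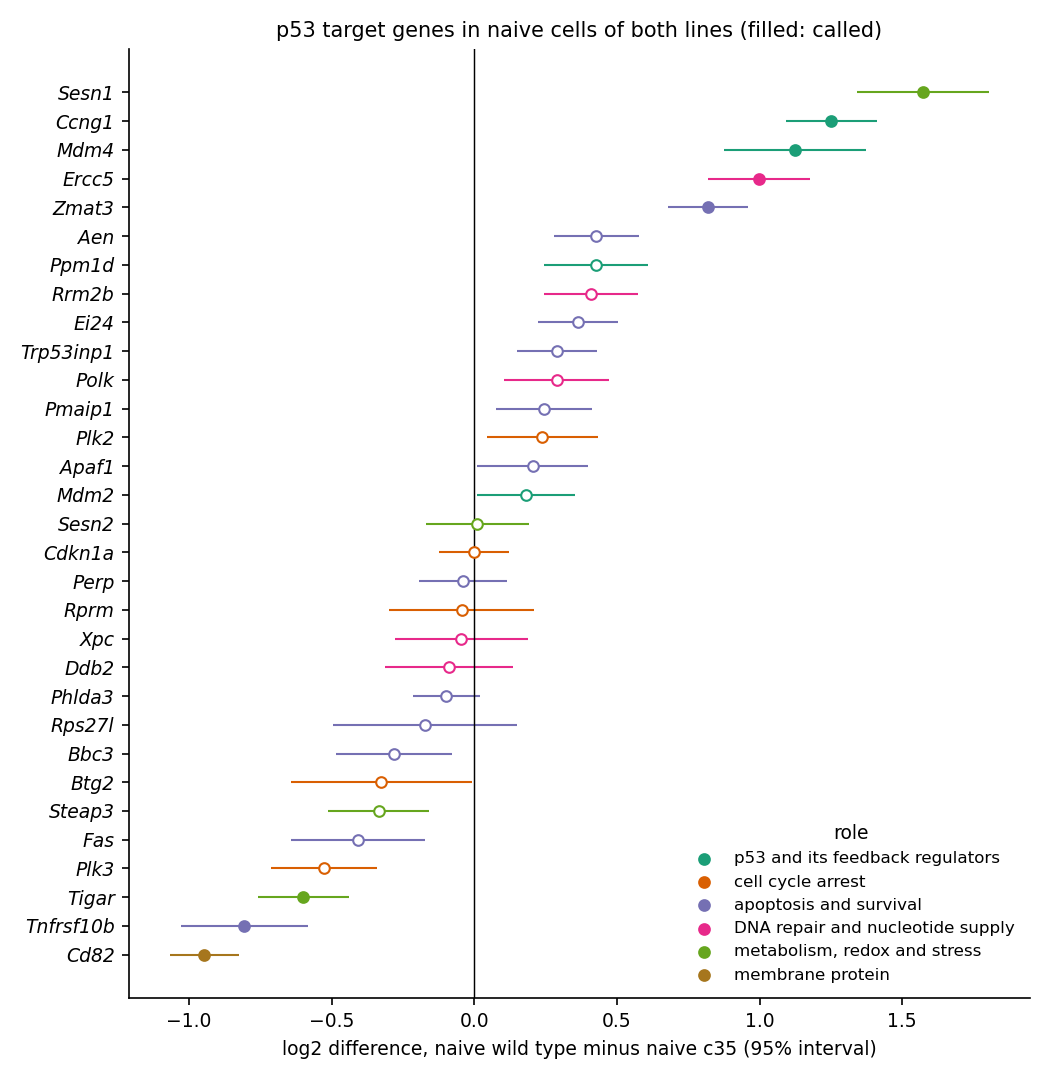
Log2 difference between naive wild-type and naive *c*35 cells with its 95% interval (horizontal axis) for each of the 31 p53 targets (vertical axis), colored by role, with filled points for called genes. *Sesn1* (1.57) and *Cd82* (-0.95) mark the ends, and *Cdkn1a* lies at 0.00.

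*Cdkn1a* did not pass in the naive comparison, at 12.23 in both lines (difference 0.00, 95% interval from -0.12 to 0.12). Of the 4 genes that BaP raised, 0 were called between the naive lines. By that rule 7.52% of all genes were higher and 6.52% lower, so 0 of 4 is near the share of all genes. The difference was -0.33 for *Btg2* (adjusted p = 0.111, and -0.09 without wild-type replicate 1), 0.24 for *Plk2* (adjusted p = 0.0522), 0.29 for *Trp53inp1* (adjusted p = 0.00156) and -0.41 for *Fas* (adjusted p = 0.00717). Probe sets of 1 gene disagreed between the naive lines for several genes. *Ccng1* gave 1.25, -0.33 and 0.99 on its 3 sets, *Mdm2* gave 0.18, -0.93 and 0.29, *Cd82* gave -0.95 and -0.19, and *Mdm4* was called on 2 of 4 sets. *Sesn1* was called on 3 of 4, and *Tnfrsf10b* on both.

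Other genes of the p53 pathway were counted from lists that share no member with the 31. These lists, like the 31 genes, were chosen with earlier results of these data known, so their counts are no separate support. Of 33 measured other p53 targets, 4 were called higher with BaP and 0 lower, where 0.885% and 0.434% of all genes were: *Lif*, a cytokine gene (1.02, adjusted p = 4.13e-05), *Ddit4*, an inhibitor of mTOR signaling (0.85, adjusted p = 1.61e-07), *Eda2r*, a receptor of the tumor necrosis factor family (0.69, adjusted p = 4.90e-05), and the thiamine transporter gene *Slc19a2* (0.66, adjusted p = 2.83e-06). Without the fold minimum 7 were higher and 2 lower, beside 3.33% and 3.14% of all genes. The 2 were *Bid*, a BH3-only death gene (-0.26), and *Exoc4*, an exocyst gene (-0.26). The median of the 33 was 0.07. With TCDD, *Ddit4* alone of the 33 was called higher (0.67, adjusted p = 1.43e-05), where 0.341% of all genes were. *Slc19a2* and *Lif* were called higher with BaP than with TCDD, by 0.76 and 0.69, beside 0.121% of all genes. The BaP response of the 4 genes that BaP raised was larger in the wild-type line than in the *c*35 line. It was larger by 1.26 for *Lif*, 0.88 for *Ddit4*, 0.86 for *Slc19a2* and 0.80 for *Eda2r*, where 1.01% of all genes were called more positive. These 4 were picked for their BaP change in wild-type cells, so this is no separate support.

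The genes upstream of p53 were called nowhere with BaP in wild-type cells. Limma called 0 of 25 damage kinases and activators of p53 and 0 of 13 antagonists and ubiquitin ligases. By the same rule 0.885% of all genes were higher and 0.434% lower, so 0 in lists this short is near the share of all genes. At an unadjusted p below 0.05 there were 8 of the 25 and 4 of the 13, beside 19.2% of all genes. Without the fold minimum 3 of the kinases and activators were lower and 0 higher, beside 3.14% and 3.33% of all genes. The 3 were the DNA damage kinase gene *Prkdc* (-0.36), the checkpoint mediator gene *Mdc1* (-0.37) and the nuclease gene *Mre11a* (-0.34). Of the antagonists, 0 passed. In the first list the BaP arrays lay above all naive arrays for 3 genes and below for 8, beside 11.5% and 12.3% of all genes. The paralogs *Trp63* and *Trp73* had mean signals at the 16.4 and 40.6 percentiles of all genes, and differed by -0.17 and -0.13 with BaP. Of 19 genes of nucleotide excision and translesion repair outside the members, 0 were called, where 0.885% of all genes were higher and 0.434% lower. Of the 19, 4 had an unadjusted p below 0.05, beside 19.2% of all genes. The polymerase genes *Poli* (-0.33) and *Rev3l* (-0.33) were lower at the adjusted p alone, beside 3.14% of all genes.

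Genes of the cell division cycle that are lowered through p21, DREAM and RB, the arm by which p53 represses, were called 0 times of 25 with BaP by limma. By this rule 0.885% of all genes were higher and 0.434% lower. At an unadjusted p below 0.05 there were 11 of the 25, beside 19.2% of all genes. At the adjusted p alone 4 were lower and 0 higher, beside 3.14% and 3.33% of all genes. These were *Plk1*, *Ccna2*, *Aurka* and *Foxm1*, which act in mitosis or its control, at -0.24 to -0.35. The BaP arrays lay below all naive arrays for 15 of the 25, where this held for 12.3% of all genes, and their median change was -0.14. With TCDD it held for 1 of 25, beside 7.95% of all genes, and the median was -0.02.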

How the data were processed

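The authors deposited log2 signals from 18 Affymetrix arrays, made by robust multiarray averaging (RMA) per the submitters' processing notes, of a version not given in the sources read. These log2 values were used as deposited. Leaving out 64 control probe sets, limma 3.58.1 (R 4.3.3) fitted the means of the 6 groups to 45037 probe sets, with eBayes and an intensity trend, in place of the intensity-based moderated statistic that the study's methods name within limma. Benjamini-Hochberg adjustment ran over all of these in each of 8 comparisons. The criterion was an adjusted p below 0.05 with a change of more than 1.5-fold, and for ligands in *c*35 cells an adjusted p below 0.1. Symbols came from the platform annotation, and probe sets with several symbols named no gene. Genes called with a ligand, and up to 8 called in each direction between the naive lines, are given by array. Precision is limited by the number of arrays. The fit was checked on simulated data. The members and the lists were chosen with earlier results of these data known. Alternatives were other normalizations, filters, weights, covariates and arrays left out. Promoter windows are from RefSeq on GRCm38.p6.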

Additional observations from a re-analysis of the deposited data

Results flagged for a closer look

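The difference in BaP response between wild-type and *c*35 cells, tested as an interaction term with limma, passed the criteria for 5 p53 targets. All 5 were more positive in wild-type cells, where 1.01% of all genes were called more positive and 0.33% less. The difference was 1.47 on the log2 scale for *Btg2* (adjusted p = 6.67e-04), 1.04 for *Trp53inp1* (adjusted p = 3.99e-06), 0.995 for *Fas* (adjusted p = 0.00161), 0.74 for *Plk2* (adjusted p = 0.0038) and 0.62 for *Pmaip1* (adjusted p = 0.00507). Without naive wild-type replicate 1 that of *Btg2* was 1.23, and the lowest of *Fas* among 22 alternatives was 0.82. All 3 BaP arrays of wild-type cells lay above all 3 naive arrays for these 5 genes, beside 11.5% of all genes, and in *c*35 cells the groups overlapped. The 5 genes were picked by the interaction term, so these array ranges are no separate test of it.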

How the results depend on the processing

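The alternatives changed no direction of a count or named gene that was called. With no minimum change the counts were 16 for BaP in wild-type cells, 1 for TCDD, 10 for BaP against TCDD, 9 for the BaP response between lines, 1 for the TCDD response and 19 for the naive lines. With a gene's probe sets averaged, 1 was called for BaP against TCDD and 5 for the naive lines, and *Plk2* lost its BaP calls, *Mdm2* and *Trp53inp1* their BaP against TCDD calls, and *Mdm4*, *Cd82* and *Tigar* their naive calls. *Tigar* also lost its call with array weights and with that *Actb* measure of RNA breakdown as a covariate. The setting with a gene's probe sets averaged brings in dimmer probe sets. Other causes were not tested. With each array left out in turn, the counts ran from 4 to 5 for BaP and from 0 to 1 for TCDD in wild-type cells (*Btg2* without wild-type DMSO replicate 3), from 2 to 3 for BaP against TCDD, from 5 to 7 for the BaP response, from 0 to 1 for the TCDD response (*Plk2* without *c*35 DMSO replicate 3), from 7 to 8 for the naive lines and from 0 to 0 in *c*35 cells. *Pmaip1* lost its BaP response call without *c*35 BaP replicate 2. Array weights gave 7 for the BaP response. The replicate number as a block changed none of these counts, with 4 for BaP and 5 for the BaP response. Deviations from the group means of arrays with the same number correlated at a mean r of 0.02, and 8 of 45 pairs were over 0.1. For arrays with different numbers the mean r was -0.008, and 12 of 90 pairs were over 0.1. Replicate 1 had the highest *Actb* difference of its group in wild-type cells with DMSO (1.38), TCDD (1.21) and BaP (1.14). Means over both lines cannot settle whether the numbers pair the arrays.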
